A study of Mus musculus with 18 samples.

Results

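The genes described are 36 aminoacyl-tRNA synthetase genes of the mouse, 20 for cytosolic and 16 for mitochondrial enzymes. They were found in the table by gene symbol, from a list of the enzyme family, and symbols ending in 2 were taken as mitochondrial. All 36 were found among the 23337 gene symbols of the count table, and all 36 were among the 13116 genes with enough counts to be tested. The lowest count of a cytosolic gene in any library was 216 and that of a mitochondrial gene was 40.

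Aminoacyl-tRNA synthetases join each amino acid to its tRNA, the step before the ribosome can use it, so every dividing or growing cell needs them. The cytosol and the mitochondria use largely separate sets of enzymes, both encoded in the nucleus. Kars and Gars, which make both forms, are counted as cytosolic here. The mitochondrial set serves the few proteins of the respiratory chain and ATP synthase that are made inside the organelle. When amino acids run short or the endoplasmic reticulum is under stress, the transcription factor ATF4 switches on many genes of amino acid synthesis and uptake, cytosolic synthetase genes among them.

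RNA was measured in mouse embryonic stem cells as they differentiated toward heart muscle in culture. Their line was TBX5-FTA and their strain A2Lox.cre, which is built to take up transgenes at one site, and none had been treated. The submitters called the cells of days 5, 6 and 7 (D5, D6 and D7) cardiac progenitor cells, and the cells of days 8, 10 and 15 (D8, D10 and D15) immature cardiomyocytes. There were 3 libraries of poly(A) RNA a day, 18 in all, here called a, b and c within a day. The letters follow the order of the columns, which carry no replicate number, and no label ties a column of one day to a column of another. One order did recur. Library c was the lowest of its day in all 8 cardiomyocyte markers on each day from D6 to D15, and library a the highest in 6 to 8 of them. Whether the columns are parallel cultures was not tested, and no fit used their order. The labels give one line, no treated cells and no control culture, so only days of harvest are compared. Anything else that differed between harvests, such as handling or library preparation, cannot be told apart from time in culture.

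Total counts per library ran from 5257601 to 7122093. Levels are given as CPM, the count scaled to the size of the library with TMM factors, and fold changes are log2 values with their SE. A gene was called where its adjusted p fell under 0.05 in edgeR's quasi-likelihood test with Benjamini-Hochberg adjustment over all 13116 genes. The cultures were mixtures. Summed CPM of 8 cardiomyocyte markers ran from 4991 to 8696 at D15 and from 387.8 to 463.4 at D5, while 6 fibroblast markers summed to 37670 to 46740 at D15 and to 186 to 227 at D5. Cardiac progenitor markers (8 genes) summed to 869.9 to 951.9 at D15, to 1518 to 1655 at D6 and to 1050 to 1261 at D5. Of the 7 tested, 3 were higher, 3 lower and 1 not called at D15 against D5. Epicardial markers (4 genes) summed to 1438 to 1611 at D15 and to 92.55 to 103.6 at D5, and endothelial markers (5 genes) to 223.1 to 352.3 at D15 and to 58.01 to 70.63 at D5. Pluripotency markers (5 genes) summed to at most 1.059 CPM at D15 and 6.257 CPM at D5, hepatic and yolk sac markers (5 genes) to 3.177 to 63.45 CPM at D15 and to 0.1363 to 0.7276 CPM at D5, and all 5 blood markers were at 0 in the D15 libraries. The part of this change of cell types in the results below was not tested. In such bulk samples, fewer cells of a type and less RNA per cell cannot be told apart.

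Stretches of promoter are shown because ATF4 is known to act on synthetase genes through a short motif, and the values of its target genes are given beside those of the synthetase genes further on. RefSeq windows of GRCm38.p6 running from 250 bases before to 50 bases after a gene's start were matched for 27 of the 36 members, 13 cytosolic and 14 mitochondrial. They were searched on both strands for TGATGNAA, the core of the C/EBP-ATF response element that ATF4 binds together with C/EBP proteins. The letters occurred in 5 of 13 cytosolic genes (38.5%), in 0 of 14 mitochondrial genes and in 1304 of all 32851 windows (3.97%). Members were counted by gene, with Aars2 having 2 windows, and the rest by window. Each stretch of 30 bases below is given 5′ to 3′ on the strand of its gene, with 1 match a gene in capitals. TTGCATCA and TTTCATCA are the same motif read from the opposite strand.
Aars, chr8:111033840-111033869, + strand: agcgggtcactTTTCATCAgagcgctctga
Gars, chr6:55037960-55037989, + strand: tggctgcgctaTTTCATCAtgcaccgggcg
Iars, chr13:49682126-49682155, + strand: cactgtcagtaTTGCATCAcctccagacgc
Tars, chr15:11399655-11399684, − strand: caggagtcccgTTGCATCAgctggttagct
Yars, chr4:129189895-129189924, + strand: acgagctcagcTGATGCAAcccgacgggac
The match is a description of these letters and shows no binding. CACGTG, the E-box that MYC factors bind, occurred in 4 of 13 cytosolic genes (30.8%), in 1 of 14 mitochondrial genes (7.14%) and in 7.15% of all windows. Each motif was searched on both strands, and a match was counted whether or not it overlapped a match of the other.

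Cytosolic synthetase RNA was lower at the end of the course than at its start. The summed CPM of the 20 cytosolic genes averaged 4687 ± 25.7 at D5, 3599 ± 55.2 at D6, 4067 ± 279 at D7, 2858 ± 93.1 at D8, 2606 ± 36.2 at D10 and 2855 ± 69.1 at D15 (SD, n = 3 each). The sum was lower at D6, higher again at D7 and had its lowest mean at D10. None of the D15 libraries was over 2930 CPM, and none of the D5 libraries was under 4668 CPM. The 16 mitochondrial genes summed to 865 ± 82.9 CPM at D15 and to 835 ± 58.3 CPM at D5, but Lars2 alone made up much of this and varied between libraries of a day. Without Lars2 the other 15 summed to 491 ± 21.8, 454 ± 4.67, 425 ± 5.73, 392.3 ± 6.45, 375 ± 6.48 and 386 ± 10.02 CPM from D5 to D15 in order of harvest. That sum had its highest mean at D5 and its lowest at D10.

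Per kilobase of exon, cytosolic genes had the higher levels. The median cytosolic gene was at 26.1 CPM per kilobase at D15 (lowest 8.48, highest 57.5) and at 44.2 at D5 (lowest 18.7, highest 111). The median mitochondrial gene was at 3.88 CPM per kilobase at D15 (lowest 1.02, highest 43.2) and at 6.35 at D5 (lowest 1.39, highest 31.1). Gars, the glycyl enzyme, was the highest cytosolic gene per kilobase at D5. Lars2 was the highest mitochondrial gene on both days, above the cytosolic median at D15.

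**Figure D1:**
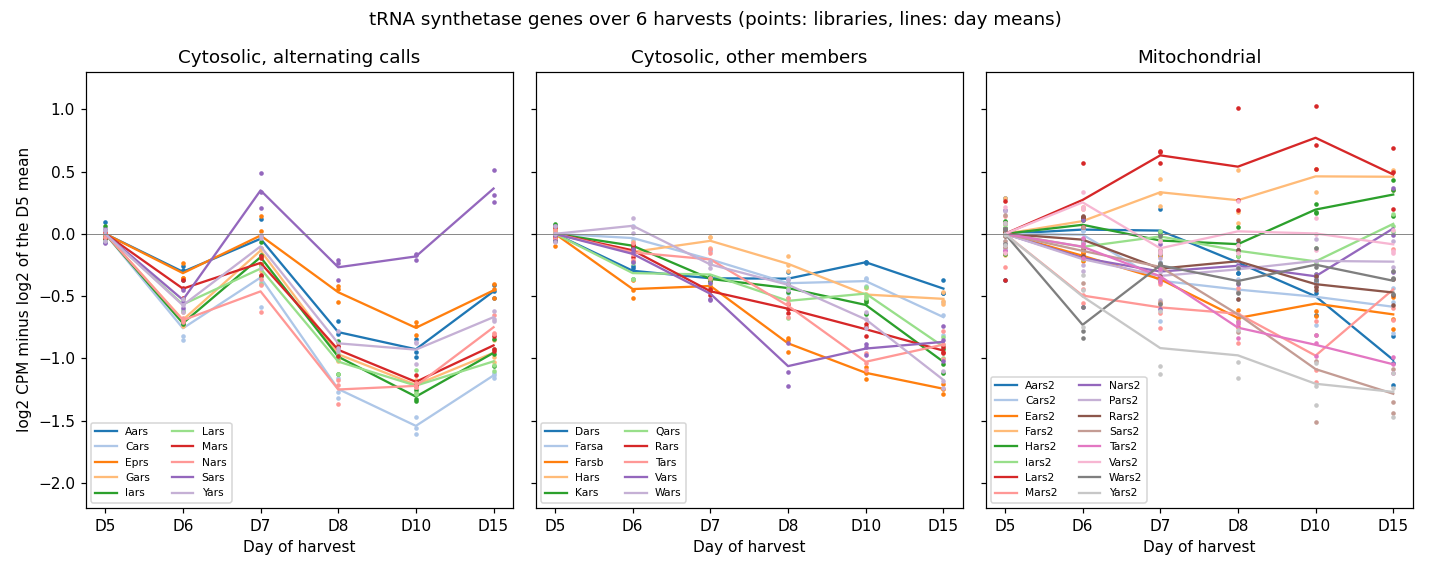
Log2 CPM of each synthetase gene relative to its D5 mean (y axis) over the 6 harvests (x axis); points are libraries and lines join day means. The 10 cytosolic genes on the left dip at D6, rise at D7, drop at D8 and rise at D15, the other 10 cytosolic genes mostly drift down, and the 16 mitochondrial genes spread in both directions.

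At D15 against D5, 19 of 20 cytosolic genes fell and 1, Sars, rose, and their median log2 fold change was −0.89. Of the 16 mitochondrial genes 9 fell, 2 rose and 5 did not pass the test, with a median of −0.41. Over all genes tested, 37.7% fell and 40.3% rose (78.0% called in all), and the median was 0.03. The 3 D15 libraries and the 3 D5 libraries did not overlap in 20 of 20 cytosolic genes and in 10 of 16 mitochondrial genes, against 80.0% of all genes. The cytosolic and the mitochondrial class were not tested against each other. The median SE was 0.15 for the mitochondrial genes and 0.07 for the cytosolic genes.

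The largest cytosolic fall was that of Farsb, the beta subunit of phenylalanyl-tRNA synthetase. Farsb had 50.1, 48.7 and 51.4 CPM at D15, against 111, 121 and 124 CPM at D5. Its log2 fold change was −1.24 ± 0.07 (adjusted p = 3.97e-15). Farsa, which encodes the alpha subunit of the same enzyme, fell by 0.67 ± 0.08 (adjusted p = 2.91e-08). The difference between the subunits was not tested. The D15 and D5 libraries did not overlap for either subunit. Exons of Farsb overlap those of Sgpp2 on the other strand, and whether counting used strand is not given.

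Wars, the tryptophanyl enzyme, had 46.4, 44.5 and 49.0 CPM at D15, against 105, 110 and 101 CPM at D5. Its log2 fold change was −1.17 ± 0.07 (adjusted p = 1.25e-14). Wars had its highest day mean at D6, at 110 ± 4.59 CPM (SD, n = 3), and was called lower than the harvest before at D7, D10 and D15. Cars, the cysteinyl enzyme, had 55.1, 55.8 and 56.7 CPM at D15, against 123, 125 and 120 CPM at D5 (log2 fold change −1.14 ± 0.09, adjusted p = 4.5e-12). Its lowest mean came earlier, 42.2 ± 2.01 CPM at D10 (SD, n = 3). Kars, the lysyl enzyme, whose gene makes both the cytosolic and the mitochondrial form, had 136, 129 and 147 CPM at D15, against 269, 296 and 274 CPM at D5. Its log2 fold change was −1.03 ± 0.06 (adjusted p = 3.46e-15), and its mean was lower at each harvest than at the one before.

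Sars, the seryl enzyme, was the cytosolic exception. It had 284, 248 and 239 CPM at D15, against 190, 205 and 204 CPM at D5, and the groups did not overlap. The log2 fold change was 0.36 ± 0.07 (adjusted p = 4.49e-05). Its course was not a steady rise. Sars averaged 200 ± 8.37 CPM at D5, 138 ± 7.02 at D6, 254 ± 24.6 at D7, 166 ± 9.57 at D8, 176 ± 2.84 at D10 and 257 ± 24.0 at D15 (SD, n = 3 each). D7 and D15 were its high days and overlapped each other.

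**Figure D2:**
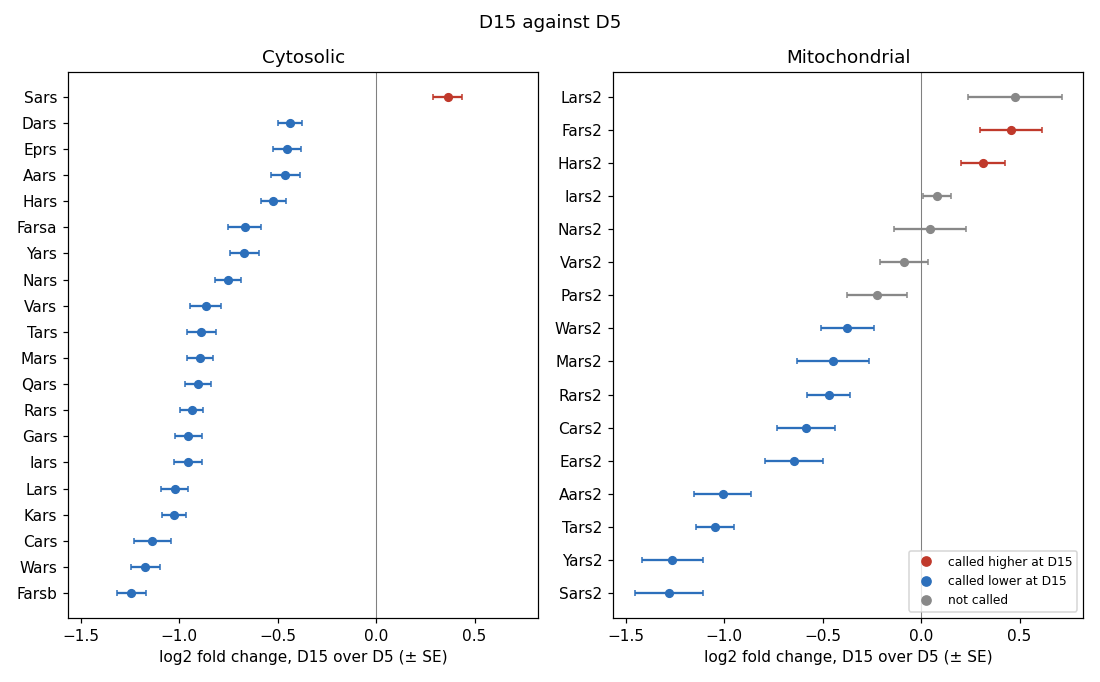
Log2 fold change of D15 over D5 (x axis, ± SE) for each synthetase gene, 3 libraries a day, coloured by call. Of the cytosolic genes 19 are called lower and Sars higher; among mitochondrial genes the points run from −1.28 (Sars2) to 0.48 (Lars2), and 5 are not called.

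The multi-synthetase complex is a particle that holds some of the cytosolic enzymes together on scaffold proteins. Its 8 synthetase genes (Dars, Eprs, Iars, Kars, Lars, Mars, Qars, Rars) all fell, with a median log2 fold change of −0.92 and a range of −1.03 to −0.44. Of the 12 other cytosolic genes 11 fell, with a median of −0.81, and over all genes 37.7% fell. The 2 sets were not tested against each other. With D8, D10 and D15 set against D5, D6 and D7, the medians had the other order, −0.55 in the complex and −0.69 outside it. Eprs, the fused glutamyl and prolyl enzyme, had the smallest fold among those 8 beside Dars, the aspartyl enzyme. Eprs fell by 0.45 ± 0.07 (adjusted p = 1.48e-06) and Dars by 0.44 ± 0.06 (adjusted p = 1.67e-07).

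Among mitochondrial genes the largest fall was that of Sars2, the mitochondrial seryl enzyme. Sars2 had 9.18, 11.7 and 9.76 CPM at D15, against 23.9, 27.7 and 23.0 CPM at D5 (log2 fold change −1.28 ± 0.17, adjusted p = 1.06e-07). Yars2, the tyrosyl enzyme, had 14.1, 12.1 and 15.4 CPM at D15, against 33.2, 35.5 and 31.4 CPM at D5 (−1.26 ± 0.15, adjusted p = 1.49e-08). The D15 libraries lay below every D5 library in both genes.

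Tars2, the threonyl enzyme, had 29.3, 28.2 and 26.7 CPM at D15, against 59.7, 61.6 and 52.8 CPM at D5 (−1.05 ± 0.10, adjusted p = 4.52e-11). It was the only mitochondrial gene whose 9 libraries of D8, D10 and D15 all lay below its 9 libraries of D5, D6 and D7. Aars2, the alanyl enzyme, had 15.4, 17.4 and 20.2 CPM at D15, against 27.5, 43.3 and 35.9 CPM at D5 (−1.01 ± 0.15, adjusted p = 3.81e-07). Aars2 stayed near its D5 mean up to D7, at 36.4 ± 2.37 CPM at D6 and 36.2 ± 4.33 CPM at D7 (SD, n = 3 each), and was called lower at D15 against D10. The other 5 mitochondrial falls, in Cars2, Ears2, Mars2, Rars2 and Wars2, ran from −0.65 to −0.38. The calls of Mars2 and Wars2 rested on single libraries. Mars2 (−0.45, adjusted p = 0.0277) missed the threshold without D5 library a or b or D15 library b or c, with adjusted p from 0.0797 to 0.128. Wars2 (−0.38, adjusted p = 0.0132) missed it without D15 library a (adjusted p = 0.0552).

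Fars2 and Hars2 were the mitochondrial genes called higher. Fars2, the phenylalanyl enzyme, had 19.1, 19.0 and 17.1 CPM at D15, against 11.9, 16.4 and 11.9 CPM at D5 (log2 fold change 0.46 ± 0.16, adjusted p = 0.0101). Hars2, the histidyl enzyme, had 38.5, 40.6 and 33.3 CPM at D15, against 31.1, 26.8 and 32.3 CPM at D5 (0.31 ± 0.11, adjusted p = 0.0112). The groups did not overlap in either gene, though the closest Hars2 libraries were 33.3 CPM at D15 and 32.3 CPM at D5. Fars2 missed the threshold without D5 library a (adjusted p = 0.0524) or c (0.0565), and Hars2 without D5 library b (0.0798) or D15 library b (0.0653). Exons of Fars2 overlap Nrn1 and Lyrm4 on the other strand.

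The 5 mitochondrial genes not called were Lars2, Iars2, Nars2, Vars2 and Pars2. Lars2, the leucyl enzyme, had 487, 554 and 396 CPM at D15, against 414, 266 and 353 CPM at D5, and the groups overlapped (log2 fold change 0.48 ± 0.24, adjusted p = 0.0868). It was the most variable member, with a within-day SD of 0.29 in log2 CPM against 0.04 to 0.24 in the other members. Its deviations from the day means went with those of Rn45s, a row for ribosomal RNA, over the 18 libraries (Pearson's r = 0.78, Spearman's rho = 0.67). Within each library both rows share its depth and scaling factor. For the other members the same r ran from −0.71 to 0.75. The part of ribosomal RNA reads in the Lars2 counts was not tested.

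Iars2, the isoleucyl enzyme, had 116, 108 and 105 CPM at D15 and 109, 106 and 96.1 CPM at D5 (0.08 ± 0.07, adjusted p = 0.32). Only 77.3% of its 50-base stretches are unique, since its exons overlap Rab3gap2, so its counts are uncertain. Nars2, the asparaginyl enzyme, had 19.6, 12.2 and 15.04 CPM at D15 and 13.8, 17.3 and 14.3 CPM at D5 (0.04 ± 0.18, adjusted p = 0.839). Vars2, the valyl enzyme, had 31.6, 27.8 and 28.2 CPM at D15 and 27.8, 29.1 and 36.0 CPM at D5 (−0.09 ± 0.12, adjusted p = 0.528). Pars2, the prolyl enzyme, had 12.7, 15.8 and 13.6 CPM at D15 and 15.4, 18.6 and 15.1 CPM at D5 (−0.22 ± 0.15, adjusted p = 0.184). D15 and D5 libraries overlapped in all 4, and a miss at these SEs does not show that their levels were equal.

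The 3 immature cardiomyocyte days were then set against the 3 progenitor days. Of the cytosolic genes 19 were lower in the later stage and 1, Sars, was not called (log2 fold change 0.03 ± 0.04, adjusted p = 0.506); their median was −0.65. Of the mitochondrial genes 8 were lower, 1 (Fars2, 0.25 ± 0.09, adjusted p = 0.0141) was higher and 7 were not called, with a median of −0.16. Over all genes 37.8% were lower and 39.3% higher (77.1% called). The 9 later and the 9 earlier libraries did not overlap in 14 of 20 cytosolic genes and 1 of 16 mitochondrial genes, against 16.9% of all genes. No member was called in opposite directions by the stage comparison and by D15 against D5.

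Across the 6 days 20 of 20 cytosolic and 12 of 16 mitochondrial genes were called, against 88.9% of all genes. The mitochondrial genes not called across days were Lars2, Nars2, Pars2 and Vars2. The highest day mean fell at D5 for 18 cytosolic genes, at D6 for Wars and at D15 for Sars. The lowest fell at D10 for 9 of them, at D15 for 8, at D8 for 2 (Nars and Vars) and at D6 for 1 (Sars).

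Neighbouring harvests were compared next, from D6 onward. At D6 against D5, 13 of 20 cytosolic genes fell and 7 were not called (median −0.32), while 3 of 16 mitochondrial genes fell (median −0.10); over all genes 16.4% fell and 18.2% rose (34.6% called). D6 and D5 libraries did not overlap in 18 cytosolic and 4 mitochondrial genes, against 48.8% of all genes. At D7 against D6, 10 cytosolic genes rose and 4 fell (median 0.15), and 1 mitochondrial gene rose and 4 fell (median −0.13); over all genes 15.1% rose and 15.3% fell (30.4% called). The 4 mitochondrial falls were in Cars2, Tars2, Vars2 and Yars2, and 1 to 4 of them were called in the fits that left out 1 library. D7 and D6 libraries did not overlap in 14 cytosolic and 7 mitochondrial genes, against 42.5% of all genes. The cytosolic genes thus went both ways at D7.

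At D8 against D7, 15 cytosolic genes fell (median −0.52) and 1 mitochondrial gene fell (median −0.07), against 11.6% of all genes that fell and 12.6% that rose (24.2% called). Libraries of D8 and D7 did not overlap in 18 cytosolic and 3 mitochondrial genes, against 37.4% of all genes. At D10 against D8, 11 cytosolic genes fell (median −0.18) and no mitochondrial gene was called by edgeR (median −0.07), against 13.9% of all genes that fell and 17.3% that rose (31.2% called). Libraries of D10 and D8 did not overlap in 13 cytosolic and 3 mitochondrial genes, against 42.6% of all genes.

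At D15 against D10, 10 cytosolic genes rose and 6 fell (median 0.17), and 2 mitochondrial genes rose and 1 fell (median −0.07); over all genes 26.4% rose and 24.4% fell (50.8% called). Libraries of D15 and D10 did not overlap in 16 cytosolic and 5 mitochondrial genes, against 56.6% of all genes. No cytosolic gene was called higher at D6, D8 or D10. For D10 against D8, 1 mitochondrial gene in each direction had an unadjusted p under 0.05 (Hars2 higher, Sars2 lower), and DESeq2 and limma-voom called 0. For the cytosolic genes 1 (Dars, at D10) was higher at an unadjusted p under 0.05 in those 3 steps, and both other tools called 0.

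The largest called cytosolic fall at D6 was in Cars (−0.76 ± 0.09, adjusted p = 1.11e-07). At D7 Sars rose the most (0.88 ± 0.07, adjusted p = 5.62e-10) and Rars, the arginyl enzyme, fell the most (−0.33 ± 0.06, adjusted p = 6.63e-05). At D8 Cars again fell the most (−0.90 ± 0.09, adjusted p = 2.62e-08), and at D10 it was Tars, the threonyl enzyme (−0.45 ± 0.08, adjusted p = 3.9e-05). At D15 Sars rose the most (0.54 ± 0.07, adjusted p = 3.71e-07) and Wars fell the most (−0.49 ± 0.08, adjusted p = 5.24e-06).

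Among mitochondrial genes Wars2, the tryptophanyl enzyme, had the largest fall at D6 (−0.73 ± 0.14, adjusted p = 0.000113) and the one called rise at D7 (0.48 ± 0.14, adjusted p = 0.0104), which missed the threshold without D6 library b (0.0505) or D7 library c (0.099). Wars2 averaged 25.7 ± 1.26 CPM at D5, 15.5 ± 1.43 CPM at D6 and 21.6 ± 4.01 CPM at D7 (SD, n = 3 each). The largest mitochondrial fall at D7 was in Yars2 (−0.41 ± 0.15, adjusted p = 0.0384). That call was lost with the compared days alone (0.0572) and without D6 library a or b or D7 library b or c (adjusted p from 0.103 to 0.178). Tars2 was the gene that fell at D8 (−0.41 ± 0.09, adjusted p = 0.00161). At D15, Mars2, the methionyl enzyme, rose the most (0.54 ± 0.20, adjusted p = 0.0273) beside Iars2 (0.30 ± 0.07, adjusted p = 0.00132), and Aars2 fell (−0.51 ± 0.15, adjusted p = 0.00652). The rise of Mars2 missed the threshold with the compared days alone (0.0753) and without D10 library a (0.0877), D10 library b (0.111) or D15 library a (0.198, log2 fold change 0.35).

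**Figure D3:**
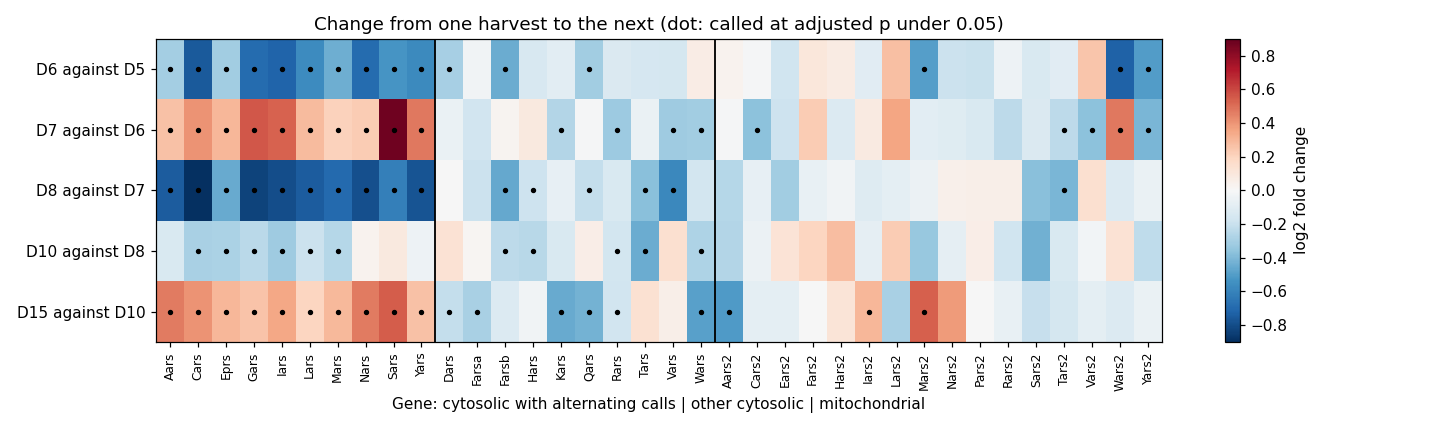
Log2 fold change of each harvest over the one before it (colour), by step (rows) and synthetase gene (columns); a dot marks a call at an adjusted p under 0.05. The 10 cytosolic genes on the left are blue at D6, red at D7, blue at D8 and red at D15, each with a dot, and no gene in the other 2 blocks has those 4 calls.

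Of the 20 cytosolic genes 10 had the same 4 calls, lower at D6, higher at D7, lower at D8 and higher at D15, each against the harvest before. These were Aars (alanyl), Cars (cysteinyl), Eprs (glutamyl and prolyl), Gars (glycyl), Iars (isoleucyl), Lars (leucyl), Mars (methionyl), Nars (asparaginyl), Sars (seryl) and Yars (tyrosyl). The sequence of calls was defined after the values were seen, so it is a description without a test. Exons of Aars overlap those of Exosc6, and exons of Mars those of Ddit3, so their counts may hold reads of the other gene. No mitochondrial gene had it. Over all genes tested 67 of 13116 had it (0.511%), and the cytosolic synthetase genes were 50.0% of their own class and 14.9% of those 67. The first 3 of the 4 calls were met by the same 10 cytosolic genes and by 146 genes in all (1.11%). Medians of the 10 genes were −0.57 at D6, 0.35 at D7, −0.76 at D8, −0.22 at D10 and 0.33 at D15. In the other 10 cytosolic genes (Dars, Farsa, Farsb, Hars, Kars, Qars, Rars, Tars, Vars, Wars) the medians were −0.15, −0.12, −0.19, −0.15 and −0.19 at the same steps. The groups were split by these same calls, so their contrast at D6, D7, D8 and D15 follows from the split.

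Gars, the glycyl enzyme, whose gene also makes both the cytosolic and the mitochondrial form, shows the course. It had 354, 345 and 345 CPM at D5, then 208, 225 and 214 CPM at D6, and 283, 322 and 346 CPM at D7. It then had 173, 172 and 190 CPM at D8, 143, 153 and 154 CPM at D10 and 192, 175 and 171 CPM at D15. No neighbouring harvests overlapped, and every D7 library stood above every D6 and D8 library. The step changes were −0.69 ± 0.07 at D6 (adjusted p = 3.75e-09), 0.56 ± 0.07 at D7 (3.23e-07), −0.83 ± 0.07 at D8 (3.02e-10), −0.25 ± 0.07 at D10 (0.0087) and 0.26 ± 0.07 at D15 (0.00332).

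Nars, the asparaginyl enzyme, followed the same course with a smaller rise at D7. It had 350, 344 and 355 CPM at D5, 216, 218 and 214 CPM at D6, 227, 263 and 272 CPM at D7, 135, 151 and 155 CPM at D8, 149, 152 and 149 CPM at D10 and 222, 201 and 200 CPM at D15. The rise was 0.23 ± 0.07 at D7 (adjusted p = 0.0083) and 0.47 ± 0.07 at D15 (adjusted p = 1.36e-06). Kars, from the other group, had 269, 296 and 274 CPM at D5, 260, 263 and 262 CPM at D6, 213, 218 and 221 CPM at D7, 202, 211 and 207 CPM at D8, 179, 192 and 193 CPM at D10 and 136, 129 and 147 CPM at D15. Kars was called lower at both D7 and D15.

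**Figure D4:**
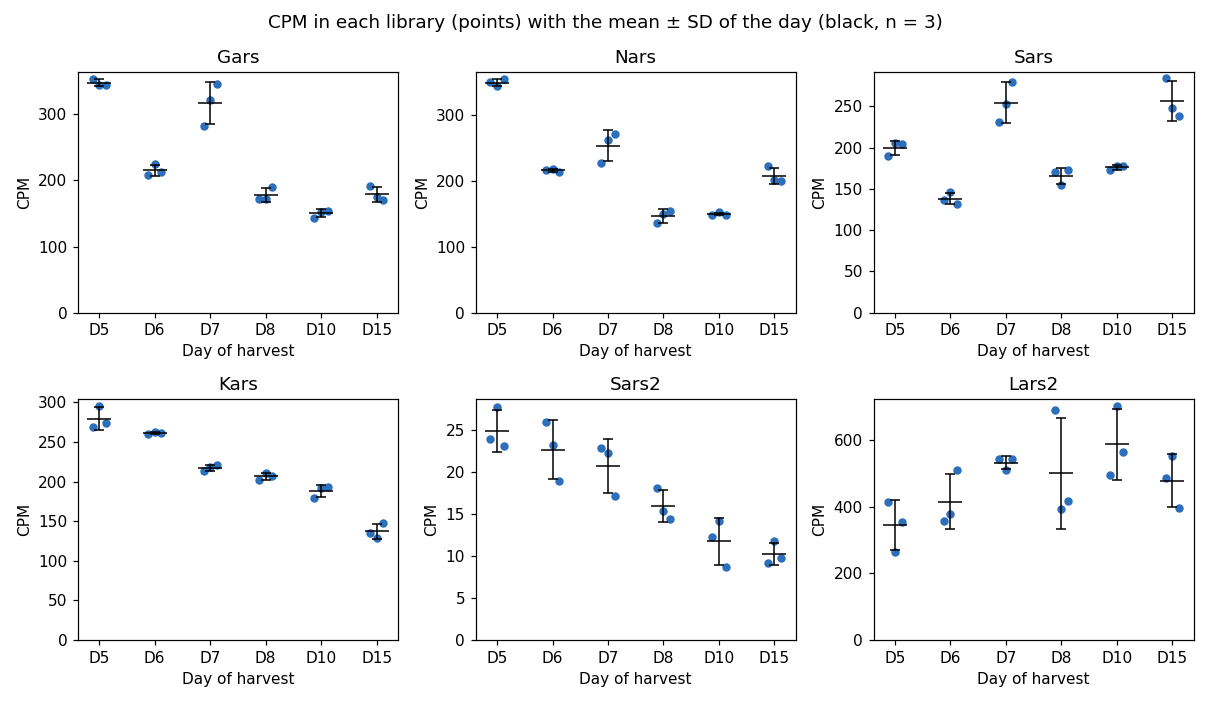
CPM (y axis, from 0) in each library at the 6 harvests (x axis), with the day mean ± SD in black (n = 3). Gars, Nars and Sars have a high D7 between a low D6 and a low D8, Kars and Sars2 decline to D15, and Lars2 has wide spreads, with one D8 library at 692 CPM.

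The D7 libraries differed among themselves in these genes. Library a was the lowest and library c the highest of the D7 libraries in 10 of 10 genes with the 4 calls, and in 4 and 5 of the 10 other cytosolic genes. Summed cytosolic CPM was 3772 in library a, 4104 in library b and 4326 in library c. Cell type markers differed between the same libraries. The 8 cardiomyocyte markers summed to 1721 CPM in D7 library a, 1366 in b and 703 in c, and the 6 fibroblast markers to 4644, 4420 and 6096 CPM. The part of these differences in the D7 values was not tested. On D15 the order was another one, with library a the highest of the day in 9 of the 10 synthetase genes and also in all 8 cardiomyocyte markers. Library a of D7 still lay above every D6 library in 9 of the 10 genes. Without D7 library c, Aars (adjusted p = 0.0834), Mars (0.0799) and Nars (0.0685) missed the threshold at D7, which left 7 genes with the 4 calls. Mars also missed it without D6 library c (0.0937) or D7 library b (0.0664), and Lars missed the threshold at D15 without D10 library a (0.104) or c (0.101) or D15 library a (0.135). Cars, Eprs, Gars, Iars, Sars and Yars kept all 4 calls in each of 18 fits that left out 1 library.

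Genes with the 4 calls were found inside and outside the multi-synthetase complex. Of its 8 synthetase genes 4 had the 4 calls (Eprs, Iars, Lars, Mars) and 4 did not (Dars, Kars, Qars, Rars), and of the 12 other cytosolic genes 6 had them. Among cytosolic genes with a matched promoter window, TGATGNAA occurred in 4 of 7 with the 4 calls (57.1%: Aars, Gars, Iars, Yars) and in 1 of 6 without them (16.7%: Tars). These windows cover only part of the class, so the shares rest on few genes. Of the genes with the 4 calls, Lars and Nars were left out with chromosome 18, and Cars had no matched window.

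ATF4 and 21 genes of its amino acid response were set beside the synthetase genes. Of these 22 genes, 14 fell at D6 (median −0.68), 16 rose at D7 (median 0.80), 16 fell and 1 rose at D8 (median −1.12), 6 fell and 4 rose at D10 (median −0.08) and 17 rose and 1 fell at D15 (median 0.97). Over all genes tested, 16.4% fell at D6, 15.1% rose at D7, and 11.6% fell and 12.6% rose at D8. At D10 13.9% of all genes fell and 17.3% rose, and at D15 26.4% rose and 24.4% fell. For D15 against D5 the list went both ways, with 8 of the 22 higher, 9 lower and 5 not called (median −0.01). Over all genes 40.3% were higher and 37.7% lower. Of the 20 cytosolic synthetase genes 19 were lower and 1 higher (median −0.89). The 4 calls were met by 8 of the 22 (36.4%), which are 11.9% of the 67 genes with that sequence. These were Asns, Psat1, Shmt2, Mthfd2, Trib3, Atf5, Slc7a5 and Pck2. Asns, asparagine synthetase, averaged 185 ± 5.87 CPM at D5, 92.8 ± 9.11 at D6, 200 ± 27.3 at D7, 38.6 ± 2.72 at D8, 14.5 ± 2.77 at D10 and 43.1 ± 9.20 at D15 (SD, n = 3 each). Slc7a5, the large neutral amino acid transporter, averaged 175 ± 9.53, 87.8 ± 11.7, 281 ± 57.4, 62.5 ± 13.5, 32.5 ± 2.56 and 124 ± 25.3 CPM on the same days. As in the synthetase genes, D7 library a was the lowest and D7 library c the highest of the day in 8 of these 8 genes.

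Atf4 RNA itself averaged 230 ± 12.1 CPM at D5, 143 ± 24.4 at D6, 180 ± 28.9 at D7, 108 ± 9.76 at D8, 105 ± 7.77 at D10 and 138 ± 19.5 at D15 (SD, n = 3 each). It fell at D6 (−0.69, adjusted p = 0.000488), was not called at D7 (0.33, adjusted p = 0.0628), fell at D8 (−0.73, adjusted p = 0.000607) and rose at D15 against D10 (0.39, adjusted p = 0.0229). ATF4 protein and the charging of tRNA were not measured here.

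Genes that work beside the synthetases were read from the same fit. Over all genes tested, 37.7% were lower and 40.3% higher at D15 than at D5. Of 11 tested tRNA charging partners 6 were lower at D15 than at D5 and 5 were not called (median −0.73), and none of the 11 had the 4 calls. The largest falls were in Eef1e1 (−1.75 ± 0.11, adjusted p = 1.3e-14) and Aimp2 (−1.32 ± 0.10, adjusted p = 3.58e-13), both scaffold proteins of the multi-synthetase complex, and in Aarsd1, which removes serine wrongly joined to alanine tRNA (−0.93 ± 0.10, adjusted p = 2.29e-09). Of 10 translation elongation factors 7 were lower and 1 higher (median −0.61). Of 75 tested cytosolic ribosomal protein genes 63 were lower and 12 not called (median −0.79), and of 75 mitochondrial ribosomal protein genes 35 were lower and 10 higher (median −0.19). None of these ribosomal protein genes had the 4 calls. Of 3 tested genes of the MYC factors, known to drive ribosome and synthetase genes in growing cells, Mycn was lower at D15 (−2.25 ± 0.12, adjusted p = 4.02e-15). The other 2, Myc and Max, were not called. Myc averaged 22.8 CPM at D5, 5.93 at D6, 6.11 at D7, 9.40 at D8, 9.35 at D10 and 22.4 at D15. Between stages Myc was called higher in the later one (0.42 ± 0.15, adjusted p = 0.0107) and Mycn lower (−1.20 ± 0.07, adjusted p = 3.8e-14). The part of MYC factors in the synthetase values was not tested.

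Cytosolic and mitochondrial genes for the same amino acid could be compared within a library in 17 pairs, with Eprs and Fars2 each in more than one pair. The ratio of cytosolic to mitochondrial CPM was lower in every D15 library than in every D5 library in 11 pairs and higher in 3 pairs (Eprs over Ears2, Sars over Sars2, Yars over Yars2), and the days overlapped in 3. For single genes, 80.0% of all genes tested did not overlap between D15 and D5. No such share was computed for ratios of other genes. With 3 libraries a day an exact two-sided permutation test cannot go under 0.10 for one pair, so the ratios are given without a test. In 4 pairs the 2 genes were called in opposite directions for D15 against D5. Farsa and Farsb fell while Fars2 rose, Hars fell while Hars2 rose, and Sars rose while Sars2 fell.

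Farsb over Fars2 was 2.63, 2.57 and 3 at D15, against 9.31, 7.41 and 10.4 at D5. Hars over Hars2 was 2.48, 2.31 and 3.02 at D15, against 4.44, 5.15 and 4.31 at D5. These 2 genes lie head to head on chromosome 18 and their exons share 195 bases, so reads of one may be counted for the other. Sars over Sars2 was 31.0, 21.2 and 24.5 at D15, against 7.96, 7.41 and 8.85 at D5, the widest shift of a ratio toward the cytosolic gene. Yars over Yars2 was 8.35, 9.28 and 7.33 at D15, against 5.58, 5.21 and 5.55 at D5, although both genes fell. The ratio of Farsb to Fars2 was thus lower at D15 and that of Sars to Sars2 higher, with no overlap in either.

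**Figure D5:**
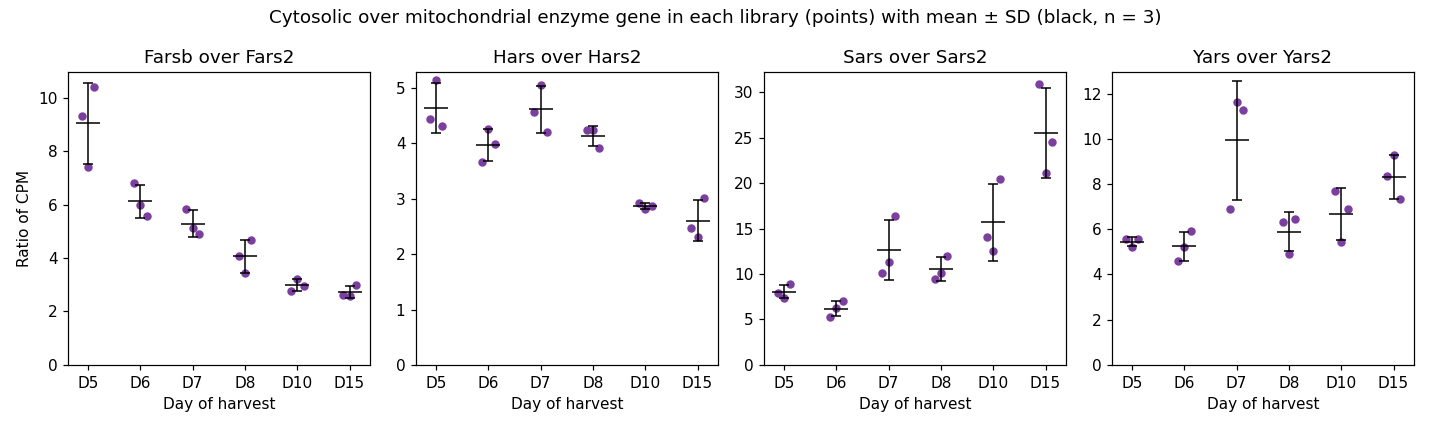
Ratio of cytosolic to mitochondrial CPM (y axis, from 0) in each library at the 6 harvests (x axis), with the day mean ± SD in black (n = 3). Farsb over Fars2 and Hars over Hars2 end below their D5 values, and Sars over Sars2 and Yars over Yars2 end above them, with the highest mean of Yars over Yars2 at D7.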

How the data were processed

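The analysis started from the raw counts per gene that the authors deposited. According to the labels' protocols, poly(A) RNA went through a TruSeq RNA v2 kit and was read as single-end reads on a HiSeq4000. STAR and mm10 are named in the submitters' processing notes. The counting tool, its annotation, its use of strand and every version are not given in the sources used here, so overlapping genes are uncertain. Of the table's columns 3 matched no sample and were left out. Nothing says that the libraries of a day are separate cultures, so p-values measure only the spread between these libraries. No 2 libraries of a day were copies of each other (chi-square over degrees of freedom 2.27 to 9.67).

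Tests used edgeR 4.0.16 (R 4.3.3), with filterByExpr (minimum count 10), TMM factors and 1 robust quasi-likelihood fit of the 6 day means to 18 libraries (12 residual degrees of freedom). The script was tested on simulated data in which only D15 levels were changed, read from D15 against D5, so the other comparisons were not covered. Alternatives were RLE and upper quartile factors, other filters, DESeq2 1.42.0, limma-voom (limma 3.58.1), the compared days alone and each library left out in turn.

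The members and lists were chosen with earlier results of these data known. Values are given for the 4 largest called rises and falls of D15 against D5 in each class, every member not called, the largest called change of each class at each step, and amino acids with opposite calls. The sequence of 4 calls and the genes that show it were chosen after their values were seen. Gatb and Mycl were listed but not found under these symbols. Vars2 is also an older symbol of Vars, and Hars2 of Dtd1, and which gene each row means was taken from the symbol. Exon lengths, overlaps and unique 50-base stretches come from the annotation given for GRCm38, and promoter windows from RefSeq.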

Additional observations from a re-analysis of the deposited data

How the results depend on the processing

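All 19 cytosolic falls and the rise of Sars for D15 against D5 held under each alternative run, as did the 19 cytosolic falls between stages. Single genes gave 140 called and 112 uncalled results over the comparisons. Under another scaling, filter, test or set of days, called results stayed called in 923 repeats and lost the call in 29, while uncalled ones stayed uncalled in 763 and gained a call in 13. With 1 library left out, called results stayed called in 2430 repeats and lost the call in 90, while uncalled ones stayed uncalled in 2000 and gained a call in 16. No called result changed direction.

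Apart from the fits that left out 1 library, the counts that moved by over 1.5 times were mitochondrial. The 1 mitochondrial gene called higher between stages became 2 with RLE factors, upper quartile factors, 1 CPM in 9 libraries or limma-voom and 3 with DESeq2. The 4 called lower at D7 became 2 with upper quartile factors, no filter or DESeq2 and 1 with the compared days alone. The 2 called higher at D15 against D10 became 1 with the compared days alone. The cause was not tested. With 1 library left out, mitochondrial counts ran from 1 to 3 higher and 8 to 9 lower for D15 against D5, from 1 to 3 higher between stages, from 0 to 1 higher and 1 to 3 lower at D6, from 0 to 1 higher and 1 to 4 lower at D7, from 1 to 2 lower at D8, from 0 to 1 in each direction at D10, from 1 to 3 higher at D15 against D10 and from 10 to 14 across days. Cytosolic counts ran from 7 to 10 higher at D7, 13 to 15 lower at D8, 0 to 1 higher and 7 to 11 lower at D10 (7 without D8 library b or D10 library a, against 11 with all libraries), and 9 to 10 higher and 4 to 6 lower at D15 against D10.

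Alternatives for the sequence of 4 calls were chosen after seeing the data. It was met by 9 or 10 cytosolic genes under another scaling, filter, test or set of days, with Lars lost at D15 against D10 under upper quartile factors (adjusted p = 0.129) and with the compared days alone (0.0813), by 7 to 10 with 1 library left out, and by 0 mitochondrial genes throughout; over all genes the count ran from 50 to 86 with 1 library left out. Lars2 was called higher for D15 against D5 by limma-voom (adjusted p = 0.0208) and without D8 library a (0.0393), and Mars2 was not called by DESeq2 (0.0558). The stage comparison holds all days, so a fit of the compared days alone is the same fit. No paired analysis was possible because the columns carry no replicate number. SEs of the mitochondrial genes for D15 against D5 ran from 0.07 (Iars2) to 0.24 (Lars2), with a median of 0.15.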

Other observations

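Beside the 10 synthetase genes and the 8 genes of the ATF4 list, 49 other genes had the same 4 calls. Those named here were chosen after their values were seen. Among the 49 were 4 amino acid transporters. Slc7a3, a transporter of cationic amino acids, changed by −1.44 at the D6 step, 2.38 at the D7 step, −4.21 at the D8 step and 1.7 at the D15 step (log2 fold over the harvest before, edgeR). Slc7a1, of the same family, changed by −1.48, 1.399, −0.96 and 0.84 at those steps. Slc1a4, which carries neutral amino acids, changed by −0.75, 0.94, −1.23 and 0.50, and Slc6a9, a glycine transporter, by −0.71, 1.29, −2.22 and 0.48. Xpot, which carries tRNA out of the nucleus, changed by −0.63, 0.29, −0.50 and 0.26. No list of such genes was tested, and the share of amino acid transporters with the 4 calls, among all such transporters, was not counted.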
